A study of Mus musculus with 4 samples.

Results

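Gene expression was compared between whole lungs taken 18 h and 6 h after C57BL/6J mice breathed an aerosol of hexamethylene diisocyanate (HDI) at 10 mg per cubic metre. The comparison covers all 12422 non-control probe sets of the 12488 on the array, each a set of short oligonucleotides designed to read a transcript, though some read several genes. It uses 2 of the 4 arrays of the study, an Affymetrix MG_U74Av2 array for each time, hybridised with total RNA of pooled lungs. The other arrays hold pooled lungs of unexposed mice of this inbred strain and lungs taken 90 h after the same exposure. Those 2 had no part in the scaling target or in any fold below, and their levels are printed only beside the values compared. How many mice went into a pool, how long they were exposed and at what hour the lungs were collected is not given in the sources used. With 1 array per time there is no spread between replicates, so nothing below carries a p-value, and each fold describes these 2 arrays and not the time after exposure as such.

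HDI is a reactive compound of polyurethane paints and coatings that binds thiol and amino groups, glutathione among them. As background, electrophiles release the transcription factor NRF2, which induces genes of glutathione and thioredoxin metabolism, and metallothioneins bind zinc and are induced by metals, oxidants and glucocorticoids. Glucocorticoids, the steroid hormones of stress and fasting, act through a nuclear receptor on genes such as Fkbp5 and Zbtb16. Acute phase proteins follow cytokines of the IL-6 family, and injured epithelium makes keratins, matrix glycoproteins and protease inhibitors during repair.

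Levels are deposited intensities scaled to a common trimmed mean of the 2 arrays, in arbitrary units, with a floor of 78.5 units below which values were treated as not measured. Lung markers were bright and alike at both times: Sftpc, a surfactant protein of type II cells, read 9616 and 9311, Scgb1a1, the main secretory protein of club cells, 9078 and 8519.9, and Ager, a receptor of type I cells, 4117 and 4297. Between 5697 and 5749 genes lay above the floor on each of the 4 arrays. RNA integrity, read from Gapdh as 3' signal over 5' signal, stood at 1.16 for 6 h and 1.12 for 18 h. The robust SD of a log2 difference, from the disagreement of 2 probe sets of the same gene in 313 genes, was 0.25. That SD says nothing of differences between animals, between pools or between hybridisations. Control transcripts of bacteria added to the samples (9 spike-in probe sets) were left out of the scaling and were higher at 18 h by a median log2 difference of 0.25 (0.05 to 0.63). Scaled on them instead, the median log2 difference of all genes was -0.26 in place of 0.00, so differences below are relative to the bulk of genes.

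The named probe sets covered 8251 genes, and the 6020 that exceeded the floor at 6 h, at 18 h or at both times were compared. At 18 h 70 of them (1.16%) were at least 2-fold lower than at 6 h and 68 (1.13%) at least 2-fold higher. Higher genes were 49.3% of those past 2-fold, but 14.2% with spike-in scaling, which gave 27 higher and 163 lower genes. Over all probe sets, named or not, 91 of 7933 (1.15%) were lower and 90 (1.13%) higher. The middle of the distribution was narrow, with 95% of compared genes between log2 differences of -0.75 and 0.76. Bounds, where 1 array was at the floor, made up 8 of the lower and 18 of the higher genes. The values nearest the threshold were -1.005 and -0.994 among lower genes and 1.0 and 0.977 among higher ones. At 1.5-fold 284 genes were lower (4.72%) and 320 higher (5.32%), and at 3-fold 18 were lower (0.299%) and 12 higher (0.199%).

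**Figure D1:**
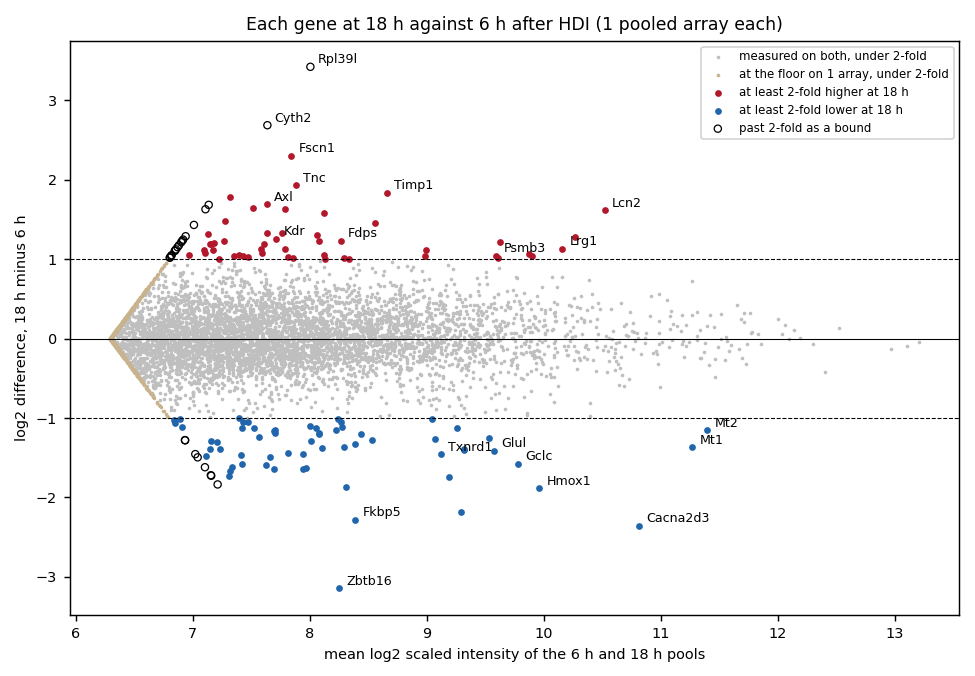
Log2 difference between the 18 h and the 6 h pool (vertical axis) against the mean log2 scaled intensity of both (horizontal axis), 1 point per compared gene, with dashed lines at 2-fold and open circles for bounds. Mt1, Mt2, Cacna2d3 and Hmox1 are lower and Lcn2 and Lrg1 higher at high intensity, while most genes lie between -0.75 and 0.76.

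Among the genes furthest lower at 18 h were Zbtb16 and Fkbp5, transcripts that glucocorticoids induce. Zbtb16, a zinc finger transcription factor, read 908 units at 6 h and 103 at 18 h, 8.85-fold lower, beside 217 in unexposed lungs and 88.4 at 90 h. Its other probe set read 207 and 96.3, which is 2.15-fold lower, so the size of the difference depends on the probe set. The brighter set carries a suffix that marks possible cross-hybridisation. Fkbp5, a co-chaperone that restrains the glucocorticoid receptor, read 740.2 and 152, 4.87-fold lower, beside 110.1 unexposed and 75.4 at 90 h. Both stood highest at 6 h of the 4 pools, and their 18 h levels were far nearer the unexposed and 90 h levels.

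Most of the glucocorticoid and fasting list was lower at 18 h. Of 32 members on the array 30 were compared: 9 were at least 2-fold lower, 1 at least 2-fold higher, and 25 lay below 0. Over all genes 1.16% were at least 2-fold lower, 1.13% at least 2-fold higher, and 50.6% lay below 0. The median log2 difference was -0.74 against 0.00 over all genes. The median stayed between -0.76 and -0.63 over 12 alternative settings. Pdk4, which turns off pyruvate dehydrogenase in fasting, read 259 and 60.4, at least 3.29-fold lower. Glul, glutamine synthetase, read 1247 and 469, 2.66-fold lower, though its other probe set had a log2 difference of -0.14. Klf9, a glucocorticoid-induced transcription factor, read 446 and 200.4, 2.23-fold lower, and its other probe set gave -1.28. Lpin1, a phosphatidate phosphatase of fat synthesis, was 2.46-fold lower, and Ddit4, an inhibitor of the mTOR kinase, 2.29-fold lower. Errfi1, Sgk1 and Pnpla2, a feedback inhibitor of the EGF receptor, a kinase of ion transport and a fat lipase, had log2 differences of -0.98, -0.97 and -0.94, just under 2-fold. Mt1 and Mt2 are among the members past 2-fold. The member on the other side was Lcn2, which is also an acute phase protein.

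Fat and muscle genes lay beside this result. Of 20 fat cell genes on the array, 16 were compared, 13 of them below 0 and 2 at least 2-fold lower, with a median of -0.40 (over all genes 50.6% were below 0 and 1.16% at least 2-fold lower). The median was -0.08 when the floor was raised to the 60th percentile. The list's summed level was 8182 units at 6 h and 5922 at 18 h, and 0 members were listed at 0 at 6 h and 0 at 18 h. Fabp4, which carries fatty acids in fat cells, macrophages and capillary endothelium, read 608 and 166, 3.65-fold lower, beside 222 unexposed and 162 at 90 h. Car3, a carbonic anhydrase of fat and muscle, was 2.41-fold lower. The defining fat markers Adipoq and Ucp1, the uncoupling protein of brown fat, were above the floor only at 6 h, at 148 and 143 units against 47.8 and 19.2 at 18 h. Among heart and skeletal muscle genes 30 of 39 compared, of 49 on the array, were below 0 (median -0.20), against the same 50.6%, and their sums were 11904 and 10696, with 0 and 0 members listed at 0. Myl1, a light chain of fast skeletal muscle, read 280.4 and 58, at least 3.57-fold lower. Acta1, skeletal muscle actin, read 622 and 399.7, beside 7.4 unexposed and 1.7 at 90 h, and Myh1, a myosin heavy chain of fast fibres, 118 and 53.9, beside 11.8 and 2. Acta1 was higher in the compared pools than in the other pools, and Myh1 was above the floor only at 6 h. The part of fat and muscle RNA in the glucocorticoid result was not tested.

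The metallothioneins Mt1 and Mt2 were lower at 18 h and still above their unexposed levels. Mt1 read 3966 at 6 h and 1535 at 18 h, 2.58-fold lower, beside 404 unexposed and 454 at 90 h. Mt2 read 4032 and 1808, 2.23-fold lower, beside 299 and 266. Both 18 h levels lay between the 6 h level and those of the unexposed and 90 h pools. The 2 transcripts are alike in sequence and their probe sets need not be independent. Of the other metallothioneins, Mt3, known from brain, read 437 and 370.0, beside 436 unexposed, and Mt4, known from stratified epithelium, 115 and, under the floor, 73.5, beside 91.5. Slc30a1, a zinc exporter, read 126 and 82.1, a log2 difference of -0.62, and Slc39a4, a zinc importer, had one of 0.67. Over the metallothionein and zinc transporter list 2 of 12 compared genes, of 13 on the array, were at least 2-fold lower. The share over all genes was 1.16%, and the list's median was -0.14.

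The promoters of Mt1 and Mt2, neighbours on chromosome 8, are shown because both genes were high at 6 h and lower at 18 h. The stretches are the 250 bases before each start in RefSeq, build GRCm38.p6, plus strand, chr8:94178839-94179088 for Mt1 and chr8:94172368-94172617 for Mt2. Capitals mark the core of the metal response element, TGCACNC or TGCGCNC on either strand, where N is any base, found in 21.3% of 27025 promoter windows of this length.
Mt1: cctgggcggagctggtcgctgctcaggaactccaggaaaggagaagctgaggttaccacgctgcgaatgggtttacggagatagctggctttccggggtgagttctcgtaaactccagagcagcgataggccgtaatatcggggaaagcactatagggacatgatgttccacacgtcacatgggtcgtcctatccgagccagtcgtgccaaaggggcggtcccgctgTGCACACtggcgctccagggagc
Mt2: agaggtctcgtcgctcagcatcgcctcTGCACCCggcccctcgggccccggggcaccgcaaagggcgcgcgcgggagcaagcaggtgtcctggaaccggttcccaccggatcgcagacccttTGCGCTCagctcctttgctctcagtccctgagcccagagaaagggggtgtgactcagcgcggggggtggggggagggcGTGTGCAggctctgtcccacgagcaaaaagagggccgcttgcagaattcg
Mt2 held 3 matches and Mt1 held 1 in this window. Bases beyond the listed starts were not searched, so these counts do not rank the promoters. A match describes the letters and not a bound site.

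Genes of the antioxidant response were lower at 18 h in a small, strongly moved subset. Hmox1, which breaks down heme, read 1917 at 6 h and 519.8 at 18 h, 3.69-fold lower, beside 341 unexposed and 316 at 90 h. Gclc, the catalytic subunit of the enzyme that limits glutathione synthesis, read 1524 and 510.2, 2.99-fold lower, beside 217 and 260.0. Txnrd1, a thioredoxin reductase, read 922 and 336, 2.75-fold lower, beside 174 and 179. As with the metallothioneins, the 18 h levels lay between the 6 h level and the unexposed and 90 h levels. Srxn1, which repairs oxidised peroxiredoxins, was 2.44-fold lower (402 and 165 units). Its other probe set was under the floor at both times, and the mean over its probe sets gave a log2 difference of -0.64. Gclm, the regulatory subunit beside Gclc, had a log2 difference of -0.85. These 4 past 2-fold were the only such genes of 29 compared, of 32 on the array. Over all genes 1.16% were at least 2-fold lower. The list's median was -0.07.

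Other members of the antioxidant list lay on the other side. Nfe2l2, which encodes NRF2 itself, read 390.2 and 651 (log2 difference 0.74), and Taldo1, an enzyme of the pentose phosphate pathway that supplies NADPH, 263 and 419 (0.67). Prdx2, a peroxiredoxin, had a difference of 0.57. Among glutathione S-transferases, which conjugate glutathione to reactive compounds, 12 of 17 compared genes were above 0, against 49.4% of all genes, with a median of 0.22 that turned to -0.06 with spike-in scaling. Mgst3, a microsomal member, read 245 and 472 (0.94). Gstp1 read 1025 and 1466 (0.52). None of the transferases passed 2-fold.

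Txnrd1 has 3 starts in RefSeq, and the window before the second (chr10:82858956-82859205, GRCm38.p6, plus strand) is shown because it alone of them held the antioxidant response element core, TGACNNNGC on either strand, in capitals.
Txnrd1: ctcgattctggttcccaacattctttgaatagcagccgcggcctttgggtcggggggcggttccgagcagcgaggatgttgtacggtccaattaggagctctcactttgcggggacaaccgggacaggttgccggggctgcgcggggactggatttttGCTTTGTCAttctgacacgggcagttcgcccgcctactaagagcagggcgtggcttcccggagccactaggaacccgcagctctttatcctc
This core was present in 10.1% of promoter windows and absent, in these letters, from the window of Srxn1. That window did hold tgagtcagc, which the searched letters do not cover, and looser forms were not searched.

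Stress genes of the p53, integrated stress and immediate early groups were lower at 18 h, again in a few strong members. Sesn1, a p53 target that restrains mTOR signalling, read 435 and 139, 3.13-fold lower, and Fas, a death receptor, 230.2 and 82.9, 2.78-fold lower. Gadd45a, a growth arrest gene, was 2.44-fold lower. Cdkn1a, which encodes the cell cycle inhibitor p21, read 1035 and 395, 2.62-fold lower, beside 164 unexposed and 316 at 90 h, but a dimmer probe set of the gene differed by -0.40 (log2). These were 4 of 14 compared p53 targets, of 16 on the array, while 1.16% of all genes were at least 2-fold lower. The list's median was -0.10 and its mean -0.48. Mdm2, the ubiquitin ligase of p53, had a difference of -0.13.

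In the integrated stress and unfolded protein list 20 of 27 compared genes, of 32 on the array, were below 0 (50.6% of all genes were). Of them 2 were at least 2-fold lower, against 1.16% of all genes, and the list's median was -0.14. Atf3, a stress transcription factor that is also an immediate early gene, read 296 and 99.1, 2.98-fold lower. Its other probe sets gave log2 differences of -0.37 and -0.38, and its brightest carries a suffix for possible cross-hybridisation. Ppp1r15a, which lets translation resume after stress, had a difference of -0.94. Among immediate early genes, the quick transcriptional answer to a stimulus, 24 of 32 compared, of 33 on the array, were below 0, against 50.6% of all genes (median -0.24). Fosl1, an AP-1 subunit, read 191 at 6 h and 62.4, below the floor, at 18 h, at least 2.43-fold lower. Fos and Klf6, also early transcription factors, had differences of -0.58 and -0.74. Klf2, a transcription factor of quiescent endothelium and lymphocytes, went the other way, at 221 and 446 units, 2.02-fold higher, beside 339.5 unexposed.

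The clock repressors Nr1d1 and Nr1d2 were lower at 18 h. Nr1d1, a nuclear receptor that represses Arntl, read 371 at 6 h and 137 at 18 h, 2.71-fold lower, beside 676 unexposed and 86.1 at 90 h. Its paralog Nr1d2 read 244 and 92.9, 2.62-fold lower, beside 184 and 22.1. At 18 h both were below the unexposed level, and both were lowest at 90 h. Tef, a clock-controlled transcription factor, read 636 and 373 (log2 difference -0.77), Cry2 146 and 86.1 (-0.76), and Per1 380.1 and 225 (-0.75). Per1 is a clock repressor that glucocorticoids also induce and stands on both lists. The activators Npas2, Clock and Arntl had differences of 0.47, 0.45 and 0.28. Of 19 compared clock genes, all those on the array, 14 were below 0 and 2 past 2-fold (median -0.34), beside 50.6% below 0 and 1.16% at least 2-fold lower over all genes. Hour of day and time after exposure cannot be told apart here.

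The promoters of Tef and Per1 are shown because both held an E-box, the site CACGTG of the CLOCK and ARNTL pair, in capitals, present in 6.05% of promoter windows. They are the first of 2 starts each in RefSeq, GRCm38.p6, plus strand, chr15:81802423-81802672 and chr11:69098699-69098948.
Tef: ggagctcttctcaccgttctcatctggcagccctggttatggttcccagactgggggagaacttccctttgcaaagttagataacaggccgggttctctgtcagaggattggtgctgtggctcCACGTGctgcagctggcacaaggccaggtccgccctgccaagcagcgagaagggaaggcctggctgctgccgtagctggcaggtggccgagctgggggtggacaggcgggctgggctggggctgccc
Per1: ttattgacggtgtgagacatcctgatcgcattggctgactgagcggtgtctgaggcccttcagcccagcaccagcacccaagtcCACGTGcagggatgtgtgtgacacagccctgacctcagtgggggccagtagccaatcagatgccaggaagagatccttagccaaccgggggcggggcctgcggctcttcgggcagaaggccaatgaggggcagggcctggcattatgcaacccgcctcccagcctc
The windows of Nr1d1 and Nr1d2 held no such letters.

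Several single genes completed the decreases. Cacna2d3, an auxiliary subunit of voltage-gated calcium channels, read 4080.4 and 798, 5.12-fold lower, beside 960.3 and 797 in the unexposed and 90 h pools, so the 6 h pool stood alone. Lyve1, a hyaluronan receptor of lymphatic endothelium, read 1066 and 319, 3.34-fold lower, beside 360.1 unexposed. Sphk1, a sphingosine kinase, was 3.32-fold lower, Ampd3, an AMP deaminase, 3.18-fold lower, the kinase gene Map3k6 3.1-fold lower and Cfc1, a co-receptor of Nodal, 3.11-fold lower. Cdh4, a cadherin, was 4.54-fold lower by its brightest probe set, while another gave a log2 difference of 0.52, so its direction depends on the probe set. Bounds came from Npr3, the clearance receptor of natriuretic peptides, which read 259.9 and 64.5 by 1 probe set (at least 3.31-fold lower) and 253 and 62.9 by another. Sulf2, which trims heparan sulfate, was at least 3.07-fold lower, and Nat3, an acetyltransferase, at least 2.82-fold lower.

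**Figure D2:**
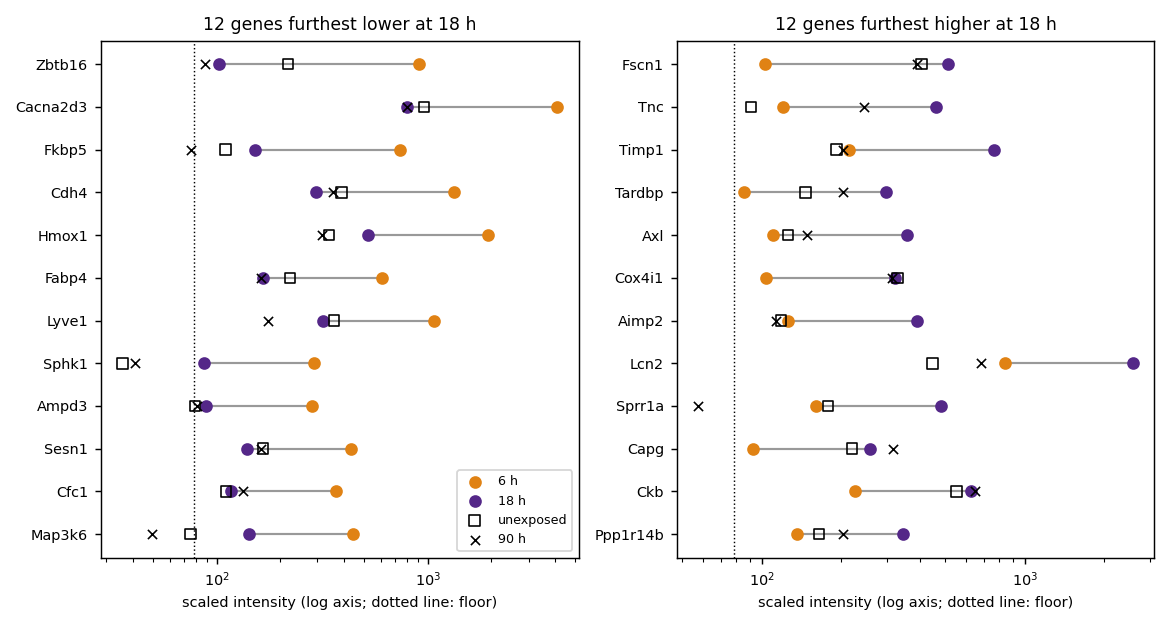
Scaled intensity (log axis) of the 12 genes furthest lower and the 12 furthest higher at 18 h among genes above the floor on both arrays. Filled circles are the 6 h and 18 h pools, squares and crosses the unexposed and 90 h pools. On the left the 6 h level is the highest of the 4 in each gene, and on the right the 18 h level is the highest for Fscn1, Tnc, Timp1, Axl, Aimp2, Lcn2 and Sprr1a, among others.

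Tnc, Timp1 and Sprr1a were among the 12 genes furthest higher at 18 h. Tnc, the matrix glycoprotein tenascin C, read 121 at 6 h and 460.5 at 18 h, 3.81-fold higher, beside 91 unexposed and 246 at 90 h, and its other probe set read 79.1 and 214. Timp1, an inhibitor of metalloproteinases, read 214 and 765, 3.57-fold higher, beside 193 and 203. Its other probe set was under the floor at both times, and the mean over its probe sets gave a log2 difference of 0.92. Sprr1a, a precursor of the cornified envelope, read 162 and 482, 2.98-fold higher, beside 179 and 57.5. At 6 h all 3 were close to the unexposed level, and at 18 h they were highest of the 4 pools. Axl, a receptor kinase that recognises dying cells, showed the same order, with 110.4 and 357 units (3.23-fold higher) and 126 and 148 in the other pools.

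The wider list of injured and transitional epithelium was mixed. Of 34 compared genes, of 37 on the array, 23 were above 0 (49.4% of all genes were). At least 2-fold higher were 3 (1.13% of all genes were), and 1, Cdkn1a, was at least 2-fold lower (1.16%). The median of 0.19 turned to -0.05 with spike-in scaling. Plau, the urokinase protease, was above the floor only at 18 h (65.1 and 149 units, log2 difference 0.92), while its receptor gene Plaur read 279 and 151 (-0.88). Sfn, an epithelial 14-3-3 protein that p53 induces, read 572 and 294 (-0.96), beside 46.4 unexposed. S100a6 and Lgals3, a calcium-binding protein and a galectin, had differences of 0.72 and 0.69. Krt4, a keratin of stratified epithelium that was not on the list, read 347 and 749, 2.16-fold higher, and 77 and 203 by another probe set. Among metalloproteinases and their inhibitors Timp1 was the only 1 of 14 compared genes past 2-fold (median 0.01, or -0.25 with spike-in scaling). Over all genes 1.13% were at least 2-fold higher and 1.16% at least 2-fold lower. Mmp3, stromelysin, had a difference of 0.70. The median of 47 collagens, laminins and matricellular genes was -0.01, with Tnc higher and Lox, which crosslinks collagen, 2.31-fold lower (526 and 228 units).

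The promoter of Sprr1a is shown because it held 2 AP-1 sites, TGANTCA, in capitals. The window is chr3:92485882-92486131, GRCm38.p6, minus strand.
Sprr1a: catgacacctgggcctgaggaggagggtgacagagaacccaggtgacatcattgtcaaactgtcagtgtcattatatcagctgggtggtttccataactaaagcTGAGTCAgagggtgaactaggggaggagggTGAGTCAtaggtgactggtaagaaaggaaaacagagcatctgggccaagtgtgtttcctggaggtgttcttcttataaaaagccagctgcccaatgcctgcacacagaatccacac
Such a site was present in 6.87% of promoter windows and absent from those of Timp1, Lcn2 and Tnc.

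Acute phase and airway defence genes had the highest list median at 18 h among lists with at least 10 compared genes. Lcn2, which binds bacterial siderophores, read 839 at 6 h and 2572 at 18 h, 3.06-fold higher, beside 447 unexposed and 679 at 90 h, and its other probe set read 79.7 and 283. Lrg1, a leucine-rich glycoprotein, read 774 and 1693, 2.19-fold higher, beside 253 and 417. For both, the 6 h level was already above the unexposed level and the 18 h level was higher again. Saa3, a serum amyloid made in inflamed tissue, read 86.9 and 180.0, 2.07-fold higher. Cd14, a receptor for endotoxin, had a difference of 0.85, Chil1, a chitinase-like lectin, one of 0.78, Itih4 and Cp, the copper oxidase ceruloplasmin, 0.76 and 0.75, and Serpina3n, a protease inhibitor, 0.57. In all 18 of 23 compared genes, of 33 on the array, were above 0 and 3 at least 2-fold higher, against 49.4% and 1.13% of all genes. The median of 0.37 lay between 0.27 and 0.57 over 12 alternatives and was 0.09 with spike-in scaling.

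Lcn2 is also a neutrophil granule gene, and the other neutrophil markers are given beside it. Of 15 compared, of 26 on the array, 9 were below 0, against 50.6% of all genes (median -0.10). S100a8, an abundant neutrophil protein, read 198 and 239, and Ngp, a granule protein, 307 and 244. The list's summed level was 4252 and 5762, with 0 and 0 members listed at 0. Lcn2 alone made up 839 and 2572 units of these sums, and it rose by more than the whole sum did. The part of neutrophils in the level of Lcn2 was not tested. Genes of IL-6 and STAT3 signalling had a median of 0.02 in 17 genes (-0.26 with spike-in scaling): Socs3, the feedback inhibitor, had a difference of 0.37, the shared receptor Il6st one of 0.52, and the kinase gene Pim3 was 2.01-fold lower.

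Proteasome genes were higher together by small amounts. Of 36 compared, of 37 on the array, 32 were above 0 (49.4% of all genes were), and the median was 0.30, or 0.02 with spike-in scaling. Psmb3 and Psma5, subunits of the core particle, read 538 and 1111 (2.06-fold higher) and 346 and 632 (log2 difference 0.87). Both levels at 18 h were the highest of the 4 pools. Psmd13 of the regulatory particle had a difference of 0.61, and Psmd11 of the same particle, -0.31, was the lowest of the list. Psme1, an interferon-induced activator of the proteasome, read 281 and 504 (0.84).

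Chaperonin and mitochondrial genes showed the same kind of shift. Among subunits of the CCT chaperonin and its partner prefoldin, which fold actin and tubulin, 7 of 10 compared were above 0. The share over all genes was 49.4%. The list's median was 0.28, or 0.00 with spike-in scaling. Cct3, Cct7 and Cct4 had differences of 0.63, 0.56 and 0.55. The general heat shock list had a median of 0.00 in 30 genes: Hspe1 and Chordc1, chaperones of mitochondria and of HSP90, had differences of 0.72 and 0.76, and Hspb8 and Dnaja2 -0.67 and -0.68. Hspa4 passed 2-fold by its brightest probe set (2.02-fold higher), while the next brightest gave -0.17. Of 57 compared subunits of the mitochondrial respiratory chain, of 62 on the array, 46 were above 0 (49.4% of all genes were) with a median of 0.29, or 0.01 with spike-in scaling. Uqcrq of complex III read 670.3 and 1138 (0.76). Cox4i1 of complex IV read 104 and 323, 3.12-fold higher, beside 328 unexposed and 313 at 90 h. It stood low in the 6 h pool alone, and its probe set too has a suffix for possible cross-hybridisation. The other probe set of Cox4i1 was under the floor at both times, and the mean over its probe sets gave 0.82. Cytosolic ribosomal proteins had a median of 0.16, with 21 of 27 above 0 (49.4% of all genes were) and none past 2-fold. Reference genes had a median of 0.18 in 14. With spike-in scaling these medians were -0.12 and -0.11.

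Most sterol synthesis genes were higher at 18 h relative to all genes. Of 15 compared, of 19 on the array, 13 were above 0 and 2 past 2-fold, against 49.4% above 0 and 1.13% at least 2-fold higher over all genes, with a median of 0.31 (0.23 to 0.36 over 12 alternatives, 0.03 with spike-in scaling). Fdps, which makes farnesyl diphosphate, read 200.5 and 471, 2.35-fold higher, and 171 and 424 by its next brightest probe set. Idi1, the isomerase just before it, read 193 and 401, 2.08-fold higher. Sqle, squalene epoxidase, had a difference of 0.68, and Cyp51, a demethylase of lanosterol, was above the floor only at 18 h (55.2 and 122 units). At 6 h Fdps and Idi1 read close to their unexposed levels of 229 and 186. Elovl1, which lengthens saturated fatty acids, read 520.5 and 1206, 2.32-fold higher, beside 812 unexposed.

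Genes of the glycolysis and hypoxia list lay on both sides, 10 of 25 compared above 0 and 15 below, against 49.4% and 50.6% of all genes. Pfkfb3, the enzyme that makes the activator of phosphofructokinase, read 253 and 116, 2.18-fold lower, Hk2, an inducible hexokinase, 222 and 119 (log2 difference -0.90), and Adm, adrenomedullin, a vasodilator that hypoxia induces, 290.3 and 123, 2.36-fold lower. The other probe set of Pfkfb3 was under the floor at both times, and the mean over probe sets gave -0.56 for Pfkfb3 and -0.45 for Hk2. The bulk glycolytic enzymes Ldha, Tpi1 and Pkm had differences of 0.65, 0.51 and 0.47. The list's median was -0.06.

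**Figure D3:**
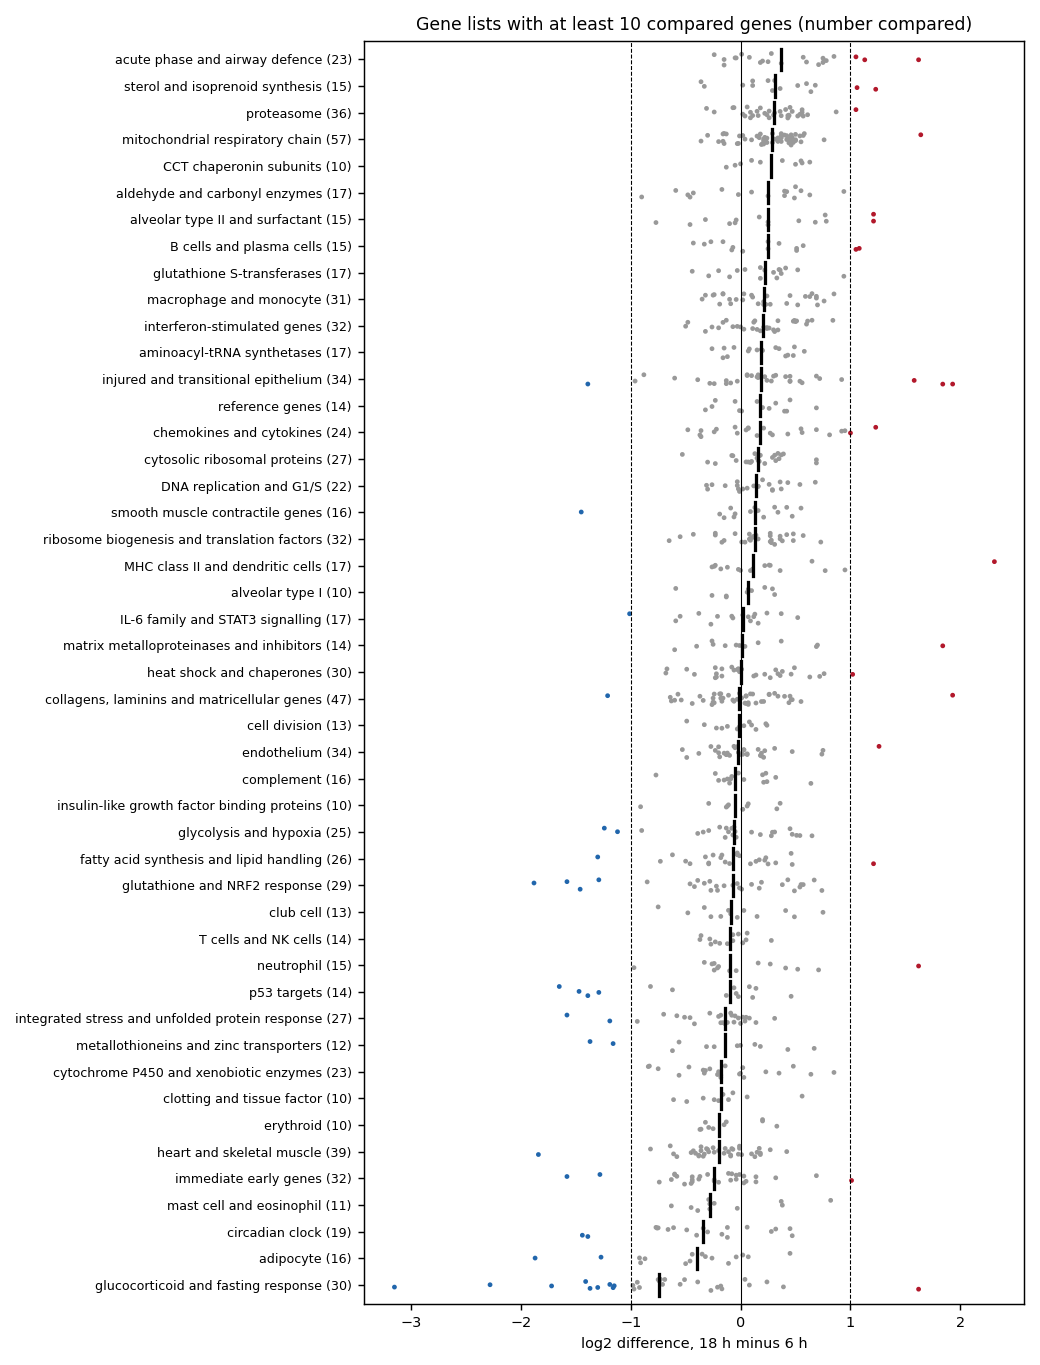
Log2 difference between the 18 h and the 6 h pool for each compared member of the gene lists with at least 10 compared genes, 1 dot per gene, with a bar at the list's median and dashed lines at 2-fold. The glucocorticoid and fasting list has the lowest median (-0.74) and the acute phase list the highest (0.37), and with spike-in scaling 19 of the 24 lists above 0, among all 50, were below 0.

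Some genes of immune and endothelial cells were low in the 6 h pool and higher at 18 h. In whole lung RNA, fewer cells of a type and less RNA per cell cannot be told apart. Fscn1, which bundles actin in mature dendritic cells, read 103 at 6 h and 509.9 at 18 h, 4.94-fold higher, beside 405 unexposed and 390.5 at 90 h. It was the gene furthest higher among those measured on both arrays. Cd79a, a signalling chain of the B cell receptor, read 132 and 280.0, 2.11-fold higher, beside 361 and 269.5. Ltb, lymphotoxin beta, was above the floor only at 18 h of the pair (54.4 and 163 units), at least 2.07-fold higher, beside 244 unexposed. Plac8, a gene of white blood cells and epithelium, read 129 and 295, 2.29-fold higher, beside 459, and Cd52, a surface protein of lymphocytes and monocytes, 158 and 321, 2.03-fold higher, beside 482. In these 5 genes the 6 h pool was the lowest of the 4.

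The wider immune lists moved less. The list of MHC class II and dendritic cells had 10 of 17 compared genes above 0, against 49.4% of all genes (median 0.11). Within it H2-Oa was at 0.77 and the class II chain gene H2-Ab1 at -0.18. Ccl17, a chemokine of dendritic cells, read 109 and 210.0 (0.95), beside 46.5 unexposed. B cell and plasma cell genes had a median of 0.25 in 15 of 24 on the array, but 0.02 in the 11 above the floor at both times. Ighm was at 0.51 by the brightest of its 16 probe sets but at 0.06 by the mean over them, and Pax5 was at -0.07. Macrophage and monocyte genes had a median of 0.21. Of 31 compared 21 lay above 0, against 49.4% of all genes, and none passed 2-fold. Tyrobp, an adaptor of myeloid receptors, read 119.7 and 202, and Ccr2, the chemokine receptor of monocytes, 21.9, under the floor, and 127. For interferon-stimulated genes the median was 0.20 over 32, with Gbp2 above the floor only at 18 h of the pair (66.5 and 119 units). With spike-in scaling the MHC class II, B cell, macrophage and interferon medians were -0.13, -0.04, -0.08 and -0.09. Of 14 compared T cell and NK cell genes 10 were below 0, against 50.6% of all genes (median -0.10).

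Among chemokines Cxcl12, which retains leukocytes and progenitors in tissue, read 177 and 416, 2.35-fold higher, beside 359 unexposed and 494 at 90 h, and 110.3 and 322 by another probe set. Cxcl14, an epithelial chemokine, read 198 and 397, 2-fold higher, beside 192 unexposed. Cxcl12 was thus low at 6 h alone, and Cxcl14 high at 18 h alone. Ccl2, which draws monocytes, was below the floor at 6 h (68.4) and read 138 at 18 h (log2 difference 0.81). The chemokine and cytokine list had a median of 0.18 in 24 compared genes of 45 on the array, or -0.08 with spike-in scaling.

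In endothelium Kdr, the main receptor of VEGF, read 136 and 325, 2.39-fold higher, beside 333 unexposed and 419 at 90 h. It was the only 1 of 34 compared endothelial genes past 2-fold, and the list's median was -0.02. Over all genes 1.13% were at least 2-fold higher and 1.16% at least 2-fold lower, so that count is near the share of all genes. Sox17, a transcription factor of arteries, and Calcrl, a receptor for adrenomedullin, had differences of 0.74 and 0.75, while Edn1, endothelin, and Thbd, thrombomodulin, had -0.53 and -0.49. The adhesion molecule Pecam1 read 1058 and 904.

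**Figure D4:**
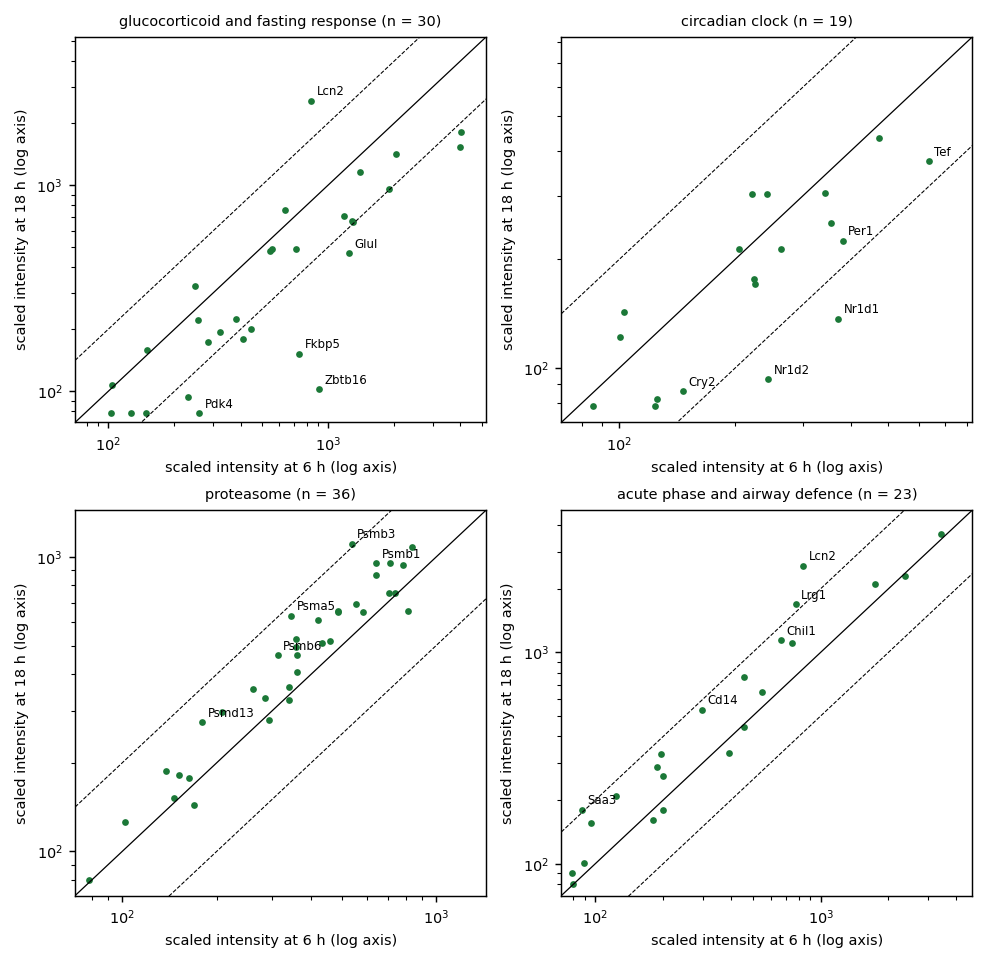
Scaled intensity at 18 h against 6 h (both log axes) for the compared members of 4 gene lists, with a solid line at equality, dashed lines at 2-fold and values under the floor drawn at 78.5. Most glucocorticoid and clock genes lie below the line, with Zbtb16, Fkbp5 and Nr1d1 far from it, and most proteasome and acute phase genes above it, with Lcn2 the farthest.

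Other genes furthest higher were of varied kinds. Tardbp, the RNA-binding protein TDP-43, read 85.9 and 296, 3.45-fold higher, beside 147 unexposed. Its other probe set was under the floor at both times, and the mean over its probe sets gave 0.89 (log2). Aimp2, a scaffold of the tRNA synthetase complex, read 126 and 389.5, 3.1-fold higher, and was high at 18 h alone. Capg, which caps actin filaments, and Ckb, a creatine kinase, were 2.79-fold higher and 2.74-fold higher, with 6 h levels of 93 and 227 under their unexposed levels of 220.3 and 551. The other compared probe set of Capg gave 0.52. Ppp1r14b, an inhibitor of protein phosphatase 1, was 2.52-fold higher. Bounds came from Rpl39l, a copy of a ribosomal protein gene, 15.4 and 842 units, at least 10.7-fold higher, and Cyth2, an exchange factor of ARF proteins, 33.3 and 506, at least 6.44-fold higher. Rpl39l was high at 18 h alone (4.3 unexposed, 25.4 at 90 h), and Cyth2 low at 6 h alone (477 and 514). B3galnt2, Cyp2a12 and Sox3, a glycosyltransferase, a P450 and a transcription factor, were at least 3.21-fold higher, at least 3.09-fold and at least 2.7-fold. The other 3 probe sets of Sox3 were at the floor on both arrays, and the mean over its probe sets gave a log2 difference of 0.36 in place of 1.43.

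A further compared probe set existed for 24 genes past 2-fold: in 20 of them it gave the same sign, and in 9 it exceeded 2-fold in that direction as well. Among lower genes 12 of 13 had the same sign and 4 passed, and among higher genes 8 of 11 and 5. Opposite signs came from Cdh4, Auh, Hspa4 and Ssbp4.

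**Figure D5:**
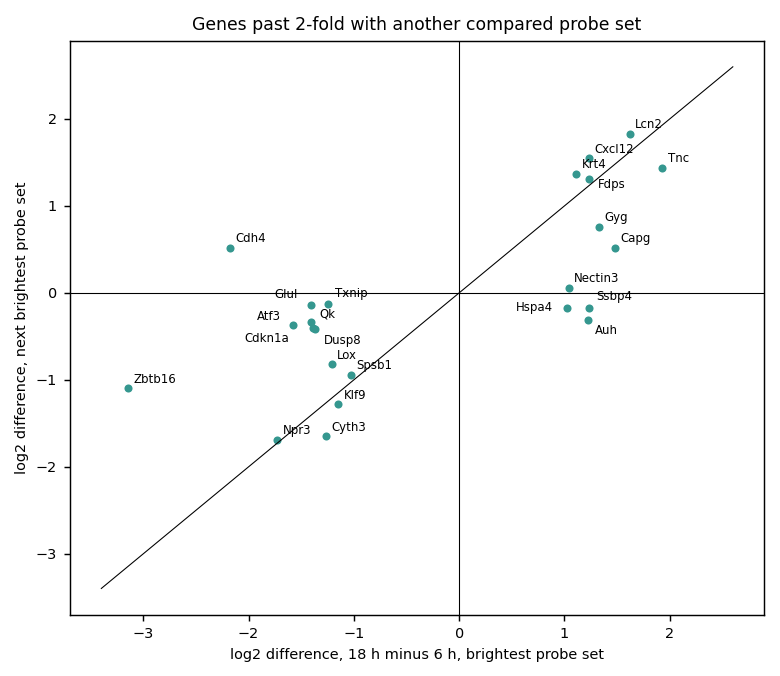
Log2 difference, 18 h minus 6 h, by the brightest probe set (horizontal axis) and by the next brightest compared one (vertical axis) of 24 genes past 2-fold, with a line at equality. Lcn2, Tnc, Fdps, Cxcl12, Krt4, Npr3, Klf9, Cyth3 and Zbtb16 pass 2-fold by both, and Cdh4 lies on opposite sides of 0.

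Among the lists that follow, only the alveolar type II list held genes past 2-fold. Club cell genes had a median of -0.09 in 13, alveolar type II genes 0.25 in 15 (-0.03 with spike-in scaling), alveolar type I genes 0.07 in 10 (-0.22 with spike-in scaling) and cytochrome P450 and xenobiotic genes -0.18 in 23. Cyp2b10 had a difference of -0.75. Cyp1a1 was above the floor only at 6 h of the pair (140 and 35.2 units), with a difference of -0.84, or -0.42 by the mean over its probe sets. Within the type II list Lrp2, an endocytic receptor, read 95.4 and 220.5, 2.31-fold higher, and Elovl1, described above, was 2.32-fold higher. These 2 among its 15 members compared exceed the share past 2-fold upward in all genes, 1.13%. For cell division and DNA replication genes the medians were -0.01 in 13 and 0.14 in 22 (-0.13 with spike-in scaling), with none past 2-fold. Aldehyde and carbonyl enzymes had a median of 0.25 in 17 (-0.06 with spike-in scaling), led by Akr1b8, an aldose reductase relative, at 0.94 and Hpgd, which inactivates prostaglandins, at -0.90.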

How the data were processed

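Values were used as the authors deposited them, as a linear intensity for every probe set of an array. What software, background correction and scaling made them is not given in the sources used. Of 12488 probe sets 66 were controls. Gene names came from the platform annotation, updated by gene identifier, which changed 0 symbols. Of the rest 10833 probe sets had 1 symbol, 396 several and 1193 were not listed, and only the first kind entered gene counts.

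Scaling brought the 2% trimmed means of the 6 h and 18 h arrays to their average, by factors of 1.01 and 0.989. Values under the 40th percentile of both arrays, 78.5 units, were set to that floor before taking log2. Where a gene had several probe sets, the brightest over both arrays stood for it. Folds from a gene at the floor on 1 array are bounds (at least N-fold), and the floor shortens differences of dim genes. Members that were compared only because 1 array was above the floor had to differ, so list counts are descriptions.

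Comparisons are folds without a test, and genes were counted at 2-fold. Named genes were the 12 furthest each way measured on both arrays, the 5 largest bounds each way and up to 5 per list with the largest differences, and any other gene named was chosen after its values were seen. The members, the 50 gene lists and the rules were chosen with earlier results of these data known. Promoter sequences are from RefSeq, GRCm38.p6. Alternatives were other scalings (none, median, quantile, cyclic loess in limma 3.58.1), a floor at the 25th or at the 60th percentile, a pseudocount of 50, other uses of probe sets, and thresholds of 1.5-fold and 3-fold. Scaling on spike-ins was chosen after seeing the data. The code, in Python 3.11.15, was tested on simulated data.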

Additional observations from a re-analysis of the deposited data

How the results depend on the processing

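No paired analysis was possible because each time has 1 array, and no replicate could be left out. No gene past 2-fold that the naming rule chose changed sign under the alternatives run, and genes named outside the rule were not rerun. Use of the next brightest probe set was not among those alternatives. By it Cdh4 (0.52) and Hspa4 (-0.17) had the opposite sign, so the direction of these genes depends on the probe set. With spike-in scaling the type II, aldehyde and B cell lists, each at 0.25, were at -0.03, -0.06 and -0.04. Smaller list medians changed sign under other alternatives, among them the EGF receptor ligand list (-0.14, and 0.06 with the higher floor) and the neutrophil list (-0.10, and 0.07 by the mean). Zbtb16 was at -1.10 without marked probe sets and Cdh4 at -0.55 with probe sets averaged. Raising the floor to the 60th percentile left 37 higher genes and 48 higher probe sets, and using a pseudocount left 39 and 58, against 68 and 90. Of those 37 and 39 genes, 37 and 32 were among the 68. At 1.5-fold there were 320 higher and 284 lower genes and 404 and 392 probe sets, and at 3-fold 12 and 18 genes and 16 and 21 probe sets. Scaled on the spike-ins 27 genes were higher and 163 lower, as were 41 and 218 probe sets, since that scaling shifts the differences downward. The median over the genes compared under it was -0.26. Each count under each other alternative, 30 cases in all, stayed within 1.5 times its main value. With no scaling, median scaling, quantile normalization and cyclic loess the higher genes numbered 69, 69, 65 and 64 and the lower 65, 65, 69 and 70. A floor at the 25th percentile gave 97 and 88, without marked probe sets 62 and 64, and with probe sets averaged 54 and 56. Plain spike-in scaling took the glucocorticoid median from -0.74 to -1.02 and the acute phase median from 0.37 to 0.09. Of the 24 lists above 0, 19 then fell below 0. With spike-in scaling counted only relative to all genes, list medians moved by more than 0.25 in 5 of 650 cases. The p53 list was at -0.48 by the mean of its members, the adipocyte list at -0.08 and the thymus list at -0.05 with the higher floor, the thymus list at -0.07 with spike-in scaling relative to all genes, and the type II list at 0.53 without genes shared with another list. The number of arrays limits the precision, and 2231 genes at the floor on both arrays could not be compared.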

Other observations

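Genes of vasoactive peptides and their receptors, chosen after their values were seen, differed in both directions. Npr1, the receptor of atrial natriuretic peptide, read 229.8 units at 6 h and 87.6 at 18 h, 2.62-fold lower, next to the clearance receptor Npr3 described above. Ackr3, a scavenging receptor for Cxcl12 and adrenomedullin, read 169 and 83.5, 2.02-fold lower, while Cxcl12 itself was higher. Ramp1, a partner of Calcrl in receptors for calcitonin gene-related peptide, read 167 and 79.5, 2.1-fold lower, beside 139 unexposed and 239 at 90 h, and Calcrl read 400.4 and 675. Ramp1 and Calcrl thus differed in opposite directions.

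Genes of RNA handling, also chosen after their values were seen, lay on both sides. Sfpq, a splicing factor, read 114 and 235, 2.06-fold higher, beside 119 unexposed, by the brightest of 5 probe sets. Its other probe sets were under the floor at both times. Xpo1, the main nuclear export receptor, read 73.4 and 169, at least 2.15-fold higher, with its other probe set under the floor at both times. Rsrp1, an arginine and serine rich protein, read 353 and 728, 2.06-fold higher, beside 941 and 974 in the unexposed and 90 h pools. Cirbp, an RNA-binding protein induced by cold, went the other way, from 445 to 171, 2.6-fold lower, beside 203 and 168. Txnip, which binds thioredoxin and responds to glucose, read 1138 and 479.9, 2.37-fold lower, but a dimmer probe set of the gene differed by -0.13 (log2).

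Some genes, picked from all 4 arrays after their values were seen, had 1 array far from the rest. Besides Rpl39l, Vil1, the villin of brush borders, read 159 at 18 h and 3, 1.5 and 0 in the unexposed, 6 h and 90 h pools, and Sox3 read 212 against 54.4, 19.9 and 13.4, by 1 of its 4 probe sets. Mrpl50, a mitochondrial ribosomal protein, was listed at 0 at 6 h and read 186 at 18 h, with 185 and 184 in the other pools, while its other 2 probe sets were at the floor at 6 h and 18 h. No other array measures these pools again.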
